A study of Arabidopsis thaliana with 2 samples.

Results

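The B-box zinc finger family of Arabidopsis thaliana, with CONSTANS (CO) as its founding member, was examined for regions of LHY occupancy. LHY, a clock protein with a single MYB repeat, binds DNA and accumulates around dawn. The 32 genes BBX1 (CO) to BBX32 were taken by locus identifier, out of 27444 nuclear protein-coding genes. Their regions were chosen by position, as every region whose centre lay inside the gene or within 2 kb of either end. In this way 29 of the 32 genes had a region, and 62 of the 14718 regions of the list belonged to the family. Because the family was picked with these data in view, its counts and scores are descriptions and carry no test.

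The regions come from chromatin immunoprecipitation followed by sequencing (ChIP-seq) on whole seedlings of ecotype WS that were 2 weeks old and collected 2 h after dawn. One group was Wild-type and the other was lhy-21, a knock-out of LHY, and both were precipitated with an antiserum to the full-length LHY protein. Each genotype gave 1 library from 9 pooled precipitations, so there is no replicate spread, and whole seedlings mix all cell types. A listed region is one with more reads in the Wild-type than in the lhy-21 library, and its score is the authors' own value. No source used here gives its scale, so scores only rank regions within this list, where the lowest was 2.00, the median 10.1 and the highest 213.

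B-box proteins carry 1 or 2 zinc-binding B-box domains near the amino terminus, which mediate contacts between proteins, and some also carry a CCT domain, shared with clock pseudo-response regulators, which contacts DNA-binding partners and DNA. The family is divided into 5 structural groups by these domains. CO acts in leaves, where it turns on the florigen gene FT in long days, and its message is held low in the morning by the CYCLING DOF FACTOR repressors. Many of the shorter members act in seedling greening, next to the light-response factor HY5 and under the control of the COP1 and SPA ubiquitin ligase. Group assignments are the family's published ones, and the domains were not read from sequence here.

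Across the family, regions were frequent and often multiple. A region was found at 90.6% of the B-box genes, where 52.3% of all protein-coding genes had one by the same rule and 59.9% of those with a symbol of their own. At least 2 regions were found at 20 of the 32 genes (62.5%, against 23.6% of all genes), at least 3 at 11 (34.4%, against 9.34%) and at least 4 at 6 (18.8%, against 3.46%). The 6 genes with 4 regions were COL5, BBX10, BBX21, BBX28, BBX29 and BBX31. The median length of the B-box genes was 1828 bp, against 2078 bp for all protein-coding genes, and the part of gene length in these counts was not tested.

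**Figure D1:**
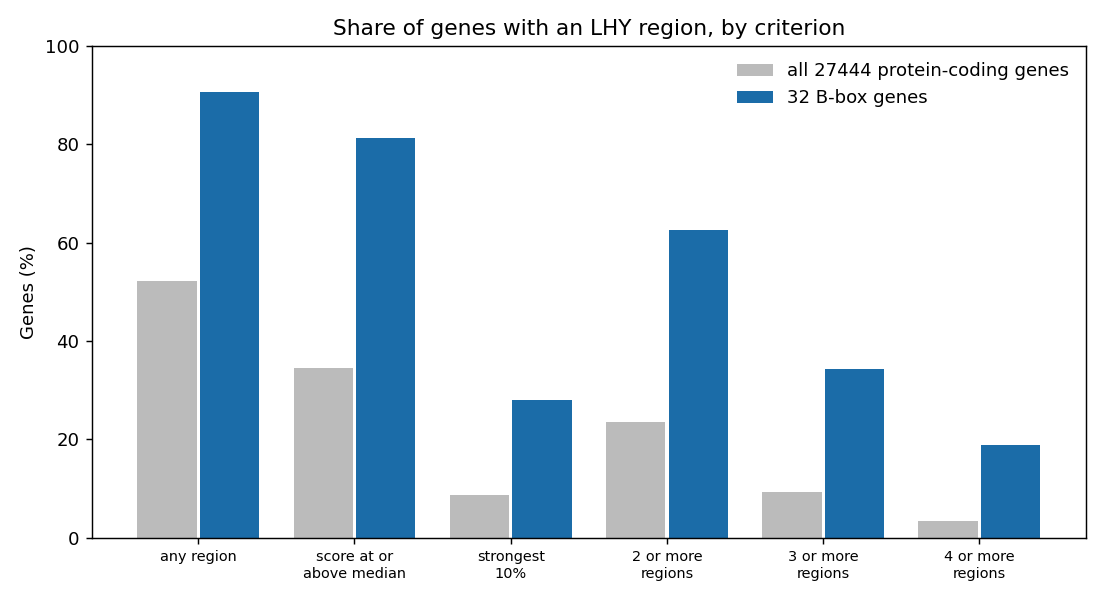
Percent of genes (vertical axis) that meet each criterion on the horizontal axis, with grey bars for all 27444 protein-coding genes and blue bars for the 32 B-box genes. The blue bar is taller in every pair, from 90.6% against 52.3% for any region to 18.8% against 3.46% for 4 or more regions; no error bars are drawn because the whole family was counted.

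Scores of the family ran from 2.01 to 104, in a list that reaches 213. The highest score of each gene had a median of 31.6 over the 29 genes with a region, with quartiles of 15.5 and 52.1, against 15.7 over all 14348 protein-coding genes with a region. It lay above that general median at 21 of the 29, where by definition about as many genes with a region lie above it as below it. A region with a score at or above the median of the list was found at 26 of the 32 genes (81.2%, against 34.5% of all genes), one from the strongest 10% at 9 (28.1%, against 8.71%) and one of the 1000 strongest at 7 (21.9%, against 6.07%). Those 7 genes were BBX29, LZF1, BBX32, BBX11, COL5, BBX19 and BBX17, which come from all 5 structural groups. The remaining pair in the strongest 10% was BBX28 and BBX14. B-box genes had a mean of 2.06 regions, against 0.902 over all protein-coding genes. A gene with more regions has more occasions for a high score, and the part of region number in these shares was not tested. Counted by region, the excess was smaller. Of the 62 regions, 66.1% were at or above the median of the list, 16.1% in the strongest 10% and 11.3% among the 1000 strongest of the 14718 regions listed.

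**Figure D2:**
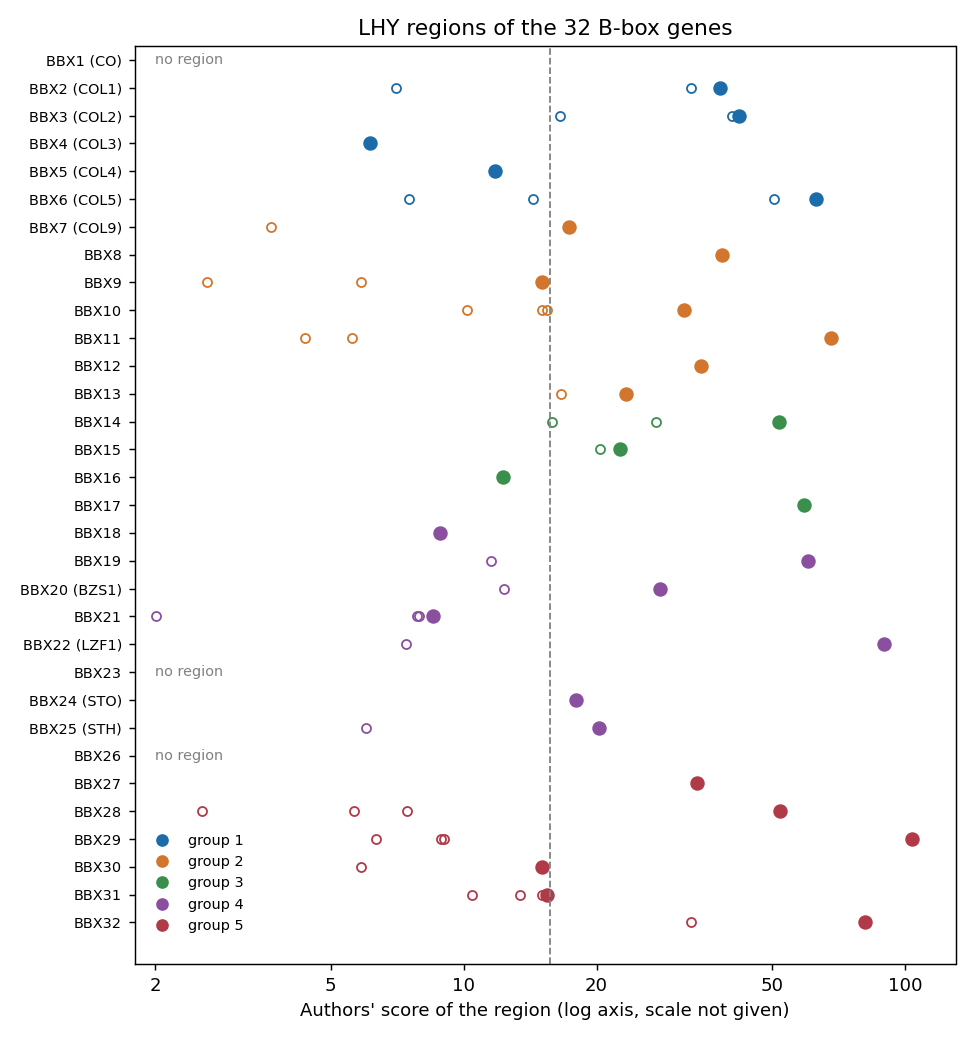
Authors' score (horizontal log axis, scale not given) of every region at each B-box gene, ordered by family number, with colour for the structural group, filled circles for the highest-scored region and open circles for the others. The dashed line marks 15.7, the median of the highest score over all genes with a region; BBX29, LZF1 and BBX32 reach farthest to the right at 104, 89.7 and 81.1, and CO, BBX23 and BBX26 have no region.

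CO itself (BBX1, AT5G15840) had no region within 2 kb. The nearest centre was 2433 bp from the gene, in a region on chromosome 5 from 5175383 to 5175654 (TAIR9) with a score of 38.2. That region lay closer to COL1 (BBX2, AT5G15850), the most similar relative of CO, from which it was 573 bp away. COL1 had 2 further regions. The one from 5175940 to 5176065, 89 bp outside the gene, scored 7.03, and the one from 5177470 to 5178600, centred 138 bp beyond the other end, scored 32.7 and was also in the windows of AT5G15853 and PCME, a prenylcysteine methylesterase gene. COL1 was thus flanked at both ends, whereas the listed regions nearest to CO, centred 2433 and 2917 bp from it, lay between CO and COL1.

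The other CO-like genes of group 1, whose proteins have 2 B-boxes, a CCT domain and a short motif that binds COP1, ranged widely. COL5 (BBX6, AT5G57660), which can promote flowering, had 4 regions and shared none of them with another protein-coding gene. On chromosome 5 they scored 50.4 (23353704 to 23354240), 7.51 (23354370 to 23354494), 14.4 (23355007 to 23355568) and 62.9 (23357213 to 23358873). The 2 strong ones were centred more than 1 kb away, at 1365 bp on one side and 1054 bp on the other, and the region at the gene end, 50 bp outside, was the one with 14.4. Its 2 strong regions therefore stand away from the gene on opposite sides.

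COL2 (BBX3, AT3G02380), the other close relative of CO, had 3 regions in a crowded stretch of chromosome 3. Scores were 16.6 at 5 bp outside one end (486724 to 487405), 42.0 inside the gene and 600 bp from an end (488484 to 489250), and 40.5 at 169 bp beyond the other end (489508 to 489765). All 3 were shared with neighbours, the last 2 with 4 other coding genes each, among them ICME-LIKE2. COL3 (BBX4, AT2G24790), a positive factor of red-light signalling, had a single region of 6.13, and COL4 (BBX5, AT5G24930), a floral repressor, had a single one of 11.8. The COL3 region lay 426 bp outside (chromosome 2, 10568501 to 10568641) and the COL4 region 153 bp outside (chromosome 5, 8589227 to 8589382). Both scores are below the general median of 15.7, so group 1 holds strong and weak members side by side.

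All 7 members of group 2, with 2 B-boxes and a CCT domain, had a region. The strongest was at BBX11 (AT2G47890), which promotes photomorphogenesis, with 68.0 on chromosome 2 from 19607848 to 19608508. It was centred inside the gene, 182 bp from an end, was in no other coding gene's window and ranked 704 in the list. BBX11 also had a region of 4.36 at 1004 bp outside (19606935 to 19607049) and one of 5.59 inside the gene (19609652 to 19609852). BBX8 (AT5G48250) had 1 region of 38.6, 252 bp outside on chromosome 5 (19563617 to 19564551), and BBX12 (AT2G33500) had 1 of 34.5, only 28 bp inside an end on chromosome 2 (14190024 to 14190477). The BBX12 region was not shared, and the BBX8 region was shared with AT5G48270.

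COL9 (BBX7, AT3G07650), which delays flowering by lowering CO and FT, had a broad region of 1266 bp with a score of 17.3 on chromosome 3 (2440494 to 2441759), centred 439 bp outside, and a narrow one of 3.67 inside (2441858 to 2441992). BBX13 (AT1G28050) had 2 regions on chromosome 1. The one at 7 bp outside (9777704 to 9778397) scored 23.3, and the one at 802 bp (9778460 to 9779230), which lay closer to AT1G28060, scored 16.6. The remaining 2 genes of group 2, BBX9 and BBX10, sit next to group 5 genes and are described with them below.

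Group 3, with 1 B-box and a CCT domain, also had regions at each of its 4 genes, all on chromosome 1. BBX17 (AT1G49130) had 1 region of 59.1 (18175775 to 18176636), centred inside the gene and 184 bp from an end. It was also in the windows of CRF9 and AT1G49140. BBX14 (AT1G68520) had 3, scored 51.8 (25708095 to 25709259, inside the gene), 27.3 (25710845 to 25711357, 112 bp outside) and 15.8 (25711646 to 25711868, 768 bp outside). The first was shared with LBD42 and the others with AT1G68526 and KCS6. BBX15 (AT1G25440) had one at each end, 22.6 at 244 bp (8933196 to 8933749) and 20.4 at 79 bp (8935246 to 8936001), neither shared. BBX16 (AT1G73870) had the weakest maximum of the group, 12.3, in a region 896 bp outside (27777672 to 27778504). Of the 4, BBX16 is the one without a centre within 500 bp.

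Group 4, with 2 B-boxes and no CCT domain, holds most of the known regulators of greening, and its median of 20.3 was the lowest of the 5 groups. The medians of the others were 38.2 in group 1, 31.6 in group 2, 37.2 in group 3 and 42.9 in group 5. With 4 to 7 genes behind each median and ranges that overlap, these values order the groups only as a description. The number of genes with a region was 5 of 6, 7 of 7, 4 of 4, 7 of 8 and 6 of 7 in groups 1 to 5. By the same rule, 52.3% of all protein-coding genes had one, and 59.9% of those with a symbol of their own.

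LZF1 (BBX22, AT1G78600), a positive factor of photomorphogenesis that works with HY5, had the strongest region of group 4. It scored 89.7, was 1380 bp wide and lay on chromosome 1 from 29565945 to 29567324, centred 229 bp outside LZF1 but inside NADK3, an NADH kinase gene. The region reaches into both genes' ends and cannot be given to either. BBX19 (AT4G38960), which restrains flowering by binding CO, had 60.1 on chromosome 4 (18159897 to 18160501), 704 bp outside and closer to its neighbour AT4G38950. A second BBX19 region of 11.5 (18160694 to 18161301) was centred 94 bp inside the gene. BBX20 (BZS1, AT4G39070), a brassinosteroid-regulated member, had 27.8 in a region 1439 bp wide (chromosome 4, 18207015 to 18208453), 1050 bp outside, and 12.3 inside the gene (18205617 to 18205729). The stronger of the BBX20 regions was shared with VHA-A3 and the weaker with AT4G39060.

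STO (BBX24, AT1G06040) and STH (BBX25, AT2G31380), a related pair that holds back HY5, had similar maxima. STO had 18.0 at 105 bp outside (chromosome 1, 1829722 to 1830455), in the windows of 3 other coding genes. STH had 20.3 at 58 bp outside (chromosome 2, 13381283 to 13382136), centred inside the neighbour AT2G31370, and 6.01 inside STH itself (13382294 to 13382437). BBX18 (AT2G21320), the closest relative of BBX19, had a single region of 8.82 at 84 bp outside (chromosome 2, 9125991 to 9126367).

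BBX21 (AT1G75540), an activator of HY5, combined the number of regions with low scores. Its 4 regions on chromosome 1 scored 7.94 (28364217 to 28364415), 7.86 (28365653 to 28366001), 2.01 (28367233 to 28367441) and 8.53 (28367572 to 28368283), all under the median of the list. The one of 7.86 was centred 3 bp inside an end, and the one of 2.01 is close to the lowest score listed. BBX23 (AT4G10240), also a positive factor of photomorphogenesis, had no region, and its nearest centre was 4352 bp away, with a score of 24.5.

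Group 5, with 1 B-box and no CCT domain, had the highest score of the family. BBX29 (AT5G54470) had 104 in a region 1290 bp wide (chromosome 5, 22114990 to 22116279). Its centre was 95 bp outside BBX29. It ranked 189 of 14718 and was in no other coding gene's window. Weaker regions lay around it, with 8.90 at 847 bp (22113316 to 22113598) and 6.32 at 490 bp (22113659 to 22113970) on one side and 9.04 at 1404 bp (22116777 to 22117110) on the other. BBX28 (AT4G27310), its close relative and an inhibitor of HY5 activity, also had 1 strong region and 3 weak ones. The strong one scored 52.1, spanned 2485 bp on chromosome 4 (13673425 to 13675909), the widest at any B-box gene, and was centred 870 bp outside. The weak ones scored 5.64 (13676841 to 13677191, 39 bp inside), 2.56 (13677520 to 13677692, 551 bp outside) and 7.47 (13678115 to 13678350, 1177 bp outside). In both genes, then, 1 broad region overlaps a gene end and the others are under the median of the list.

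BBX32 (AT3G21150), which antagonises BBX21 in light signalling, had 2 regions on chromosome 3, both centred inside the gene. They scored 32.7 (7412224 to 7412760, 47 bp from an end) and 81.1 (7412930 to 7413851, 337 bp from an end), and the latter ranked 443. Both were also in the windows of AT3G21140 and MNS2. BBX27 (AT1G68190) had 1 region of 33.7 inside the gene, 366 bp from an end (chromosome 1, 25558857 to 25559464), shared with AT1G68185. BBX26 (AT1G60250) had none, and the nearest centre was 7970 bp away, with a score of 8.85.

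BBX30 (AT4G15248) and BBX31 (AT3G21890) encode microproteins that tie CO to the TOPLESS co-repressor and so delay flowering, and each lies beside a gene of group 2. On chromosome 4, BBX30 shared both its regions with BBX9 (AT4G15250). They scored 15.0 (8708631 to 8708898), 77 bp from BBX30 and 1003 bp from BBX9, and 5.86 (8707899 to 8708087), 848 and 1774 bp away. The single region that BBX9 did not share with another coding gene scored 2.63 (8711549 to 8711775). By distance, the stronger region of this pair lies at BBX30.

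On chromosome 3, BBX31 shared 2 regions with BBX10 (AT3G21880), a repressor of flowering. Scores were 15.5 (7708767 to 7709269) and 15.0 (7709566 to 7710014), and both were centred inside BBX31 and 672 and 1444 bp from BBX10. BBX31 alone had 10.4 (7710331 to 7710892) and 13.4 (7711037 to 7711338) beyond its end. The other regions of BBX10 scored 31.6 (7704733 to 7704997) and 10.2 (7705067 to 7705276) at 1392 and 1086 bp, and lay in or closer to CYCP2;1, a P-type cyclin gene. BBX10 and LZF1 were the 2 genes with regions that were not the closest coding gene of any of them.

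Sharing of regions between genes was about as common as in the whole list. Of the 62 regions, 20 were in the window of 1 coding gene and 42 (67.7%) in those of 2 or more, against 62.8% of the 13765 regions in reach of any coding gene. For 21 of the 29 genes the highest-scored region was such a shared one. The 8 where it was not shared were COL1, COL3, COL5, BBX11, BBX12, BBX15, BBX28 and BBX29. By distance, 27 of the 32 B-box genes were the closest coding gene of a region (84.4%, against 34.4% of all genes), and 24 were closest, ties included, to their own highest-scored one. The 5 that were not closest to it were BBX9, BBX10, BBX19, LZF1 and STH. For the counts of 21 and 24 genes, the matching shares over all genes were not computed, so they describe these members only. Strand was not used, so the promoter side and the downstream side of a gene were not told apart, and neither were exon, intron and UTR.

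Centres were placed relative to the gene ends as follows. Of the 66 pairs of a B-box gene and a region, 25 (37.9%) had the centre within 200 bp of an end, inside or outside, against 30.9% of all such pairs in the genome, and 18 (27.3%) had it inside the gene, against 21.1%. The median distance of the outside centres was 622.5 bp, against 686 bp over all pairs. A centre inside the gene was found at 14 of the 32 genes (43.8%, against 16.1% of all genes), and centres beyond both ends at 9 (28.1%, against 9.29%). The 9 were COL1, COL2, COL5, BBX9, BBX10, BBX15, BBX21, BBX28 and BBX29. Regions of the family had a median width of 478.5 bp against 285 bp for the list, and 8 of 62 (12.9%) were 1000 bp or wider, against 3.81% of all regions.

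**Figure D3:**
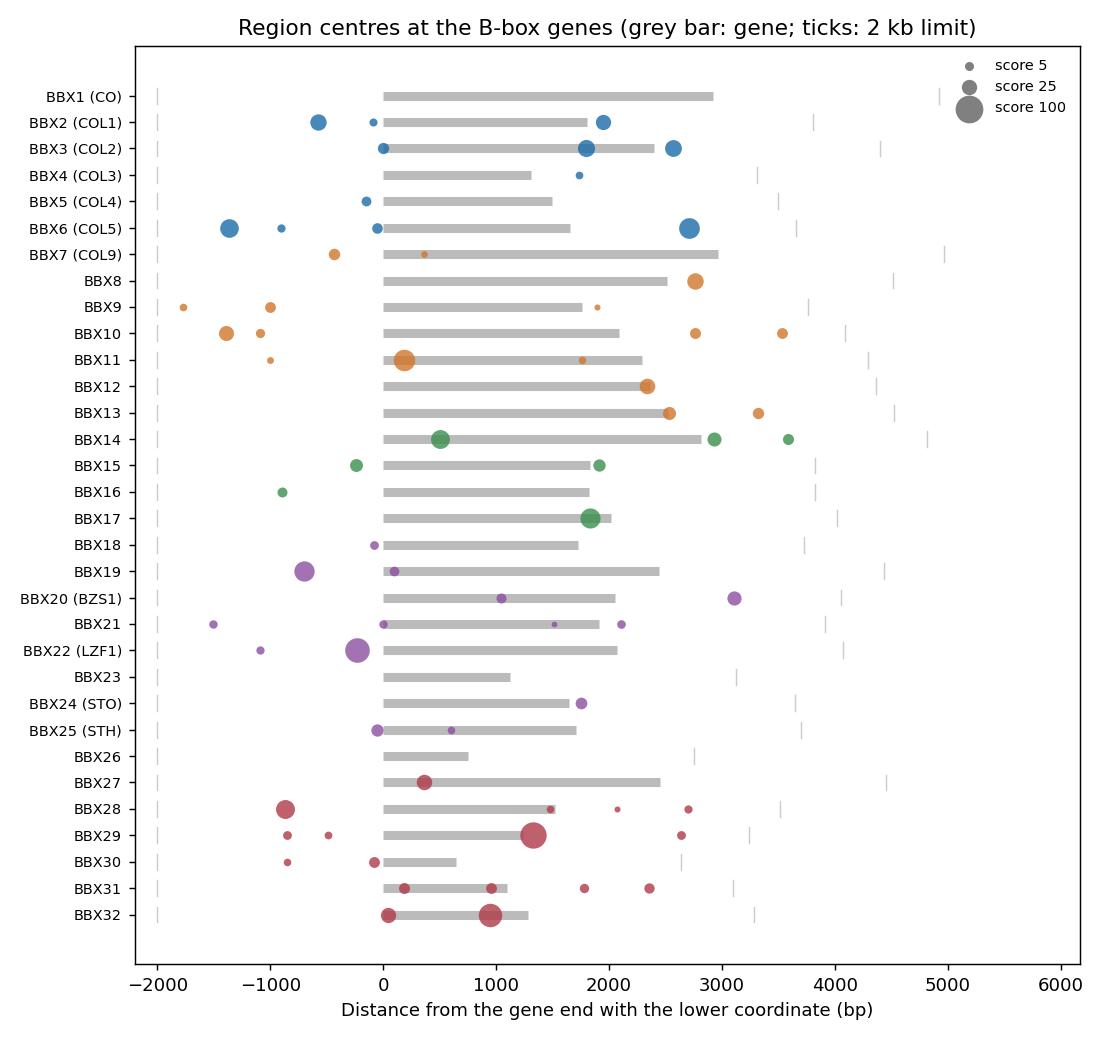
Centres of the regions at each B-box gene by distance in bp from the gene end with the lower coordinate, with grey bars for the genes, light ticks at the 2 kb limit, circle area rising with the authors' score and colour for the structural group. Large circles lie at the gene end in BBX29, inside the gene in BBX11, BBX14, BBX17 and BBX32 and more than 1 kb from it on both sides in COL5. Others lie outside the gene in LZF1, BBX19 and BBX28, at 229, 704 and 870 bp, and those of LZF1 and BBX19 are closer to a neighbour. CO, BBX23 and BBX26 have none.

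The 2 kb limit left out some strong regions. Just inside it, the farthest centre was 1774 bp from BBX9, with a score of 5.86. Just outside, regions of 10.4 lay 2047 bp from COL5, 17.3 lay 2226 bp from BBX10, 48.1 lay 2323 bp from BBX31 (chromosome 3, 7711632 to 7712881) and 44.1 lay 2513 bp from BBX18 (chromosome 2, 9130205 to 9130796), next to the CO value given above. The region of 48.1 was closer to BBX31 than to any other coding gene, and the one of 44.1 was closer to another gene, in the windows of FBA1, a plastid aldolase gene, and AT2G21340. The neighbourhoods of the 3 genes without a region were not empty. Within 50 kb of CO, BBX23 and BBX26 there were 18, 5 and 11 regions, and around the 29 others 3 to 41, with a median of 16.

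Genes that act with the family were examined by the same rule, in a list of 17. A region was found at 14 of them (82.4%, against 52.3% of all genes and 59.9% of those with a symbol of their own), with a median highest score of 37.9, against 15.7 over all genes with a region. Among regulators of CO, the repressor genes CDF2, CDF1, CDF5 and CDF3 had 128, 109, 88.4 and 32.7. Those of CDF2, CDF1 and CDF3 were centred 1277, 899 and 998 bp outside, each also in the window of 1 other coding gene. The CDF5 region was centred inside the gene and was not shared. GI, FKF1 and LKP2, which remove the CDF repressors, had 46.8, 37.7 and 52.7, and ZTL had 3.48, at a centre 1819 bp away. The GI and LKP2 regions were centred 389 and 341 bp outside and the FKF1 region inside. Of these, only the LKP2 region was shared, with 1 other coding gene. Of these 8 genes that act upstream of CO, 7 had a highest score above 15.7, the median over all genes with a region. As 15.7 is a median, about as many genes with a region lie above it as below it. The share over all genes, with or without a region, was not computed. The list was chosen with earlier results of these data known. CO had no region within 2 kb, and its nearest one, with a score of 38.2, was centred 2433 bp away.

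Of the genes that act on B-box proteins or with them, SPA3, SPA1 and SPA4 of the COP1 complex had 48.9, 38.1 and 13.4, and COP1 and SPA2 had no region. The SPA3 region was centred inside the gene and was also in the windows of 2 other coding genes. The SPA1 and SPA4 regions were each centred 27 bp outside and shared with 1. HY5 and its homologue HYH had 35.8 and 12.4, centred 1250 and 1 bp outside, each also in the window of 1 other coding gene. Downstream of CO, FT had 16.1 at 1277 bp, close to the general median of 15.7, and its twin TSF had none. A missing region shows only that none is listed, since read depth was not analysed here.

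**Figure D4:**
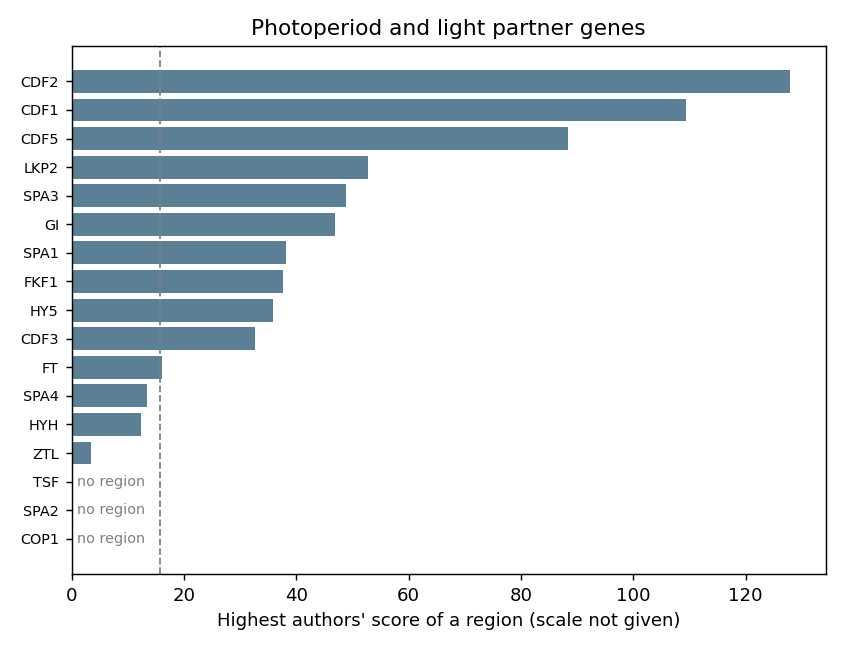
Highest authors' score (horizontal axis, scale not given) of a region at each of 17 photoperiod and light partner genes, sorted by value, with the dashed line at 15.7, the median over all genes with a region. CDF2, CDF1 and CDF5 lead at 128, 109 and 88.4, and COP1, SPA2 and TSF have no region.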

How the data were processed

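The authors deposited 1 region list made from both libraries, which gives the position and 1 score per region. Bowtie, MACS2 2.0.10.09132012 and TAIR9 are named in the submitters' processing notes, and chromatin was sheared to 100 to 1000 bp per the labels' protocols. The caller's threshold, read filters and depth per library are not given in the sources used, so the precision of each region is unknown. Coordinates are TAIR9, counted from 1. Genes and symbols came from a RefSeq table of TAIR10.1, which names 31 of the 32 members with their BBX number, so gene coordinates are not printed. As a check of fit, 34.8% of centres lay inside coding genes, against 47.2 to 58.0% after shifts of 500 or 1000 bp. The centre is the midpoint of a region, and a region counted for every gene in reach (Python 3.11.15, pandas 2.3.3). The assignment was tested on simulated regions. The members, groups and lists were chosen with earlier results of these data known. All members are named, with every region of which they are the closest gene or that scores highest. Width follows from the ends of a region, and rank is given only for the highest-scored regions of BBX29, BBX32 and BBX11. Alternatives were score limits, windows, overlap, closest gene only and merging. Sequences and motifs were not analysed here.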

Additional observations from a re-analysis of the deposited data

How the results depend on the processing

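The 29 B-box genes with a region became 26 with scores at or above the median, 27 with a window of 500 bp or the closest gene only, 29 with 1 kb, any overlap or merging within 200 bp, and 30 with 3 kb, which adds CO. The strongest 10% left 9 B-box genes (1, 1, 2, 2 and 3 in groups 1 to 5), 6 partner genes and 8.71% of all genes. The 1000 strongest left 7 (1, 1, 1, 2 and 2), 3 partner genes and 6.07%. The 14 partner genes with a region became 12 within 500 bp or 1 kb. They became 13 at or above the median score or with the closest gene only, and stayed 14 with 3 kb or any overlap. The share of all genes was 34.5% at or above the median score, 36.5% within 500 bp, 43.2% within 1 kb, 60.3% within 3 kb, 53.8% with any overlap, 34.4% with the closest gene only and 59.9% among genes with their own symbol, a background chosen after seeing the data. The genes whose highest-scored region is shared fell to 8 with 500 bp. The median highest score of 31.6 became 20.3, 22.6 and 36.3 within 500 bp, 1 kb and 3 kb. With the region closest to each gene in place of its highest-scored one, the median score was 15.5. That value used the same regions and the same 2 kb window, so the median depends on taking the maximum of each gene. Medians over all genes were not computed for these settings, and the 15.7 above is not their match. The other settings changed the regions, the windows or the genes counted. Within 1 kb the maximum of COL5 was 14.4, of BBX9 2.63, of BBX10 15.5 and of BBX20 12.3. Within 500 bp BBX19 had 11.5 and BBX28 5.64, and with any overlap BBX31 had 48.1. The planned promoter-side and motif results were not run, since strand and sequence were not used here. No paired analysis was possible because each genotype has 1 library.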

Other observations

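Some of the family's regions were also centred inside genes that do not code for protein. All 3 regions of COL1, with scores of 38.2, 7.03 and 32.7, were centred inside the long non-coding RNA gene AT5G15845. The COL5 region of 50.4 was centred inside another, AT5G08735, and the weak BBX9 region of 2.63 inside AT4G06300. The COL3 region of 6.13 was centred inside the transcribed pseudogene AT2G24791. These 6 regions counted for the B-box genes by distance, and which transcript they belong to was not tested.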
